A study of Caenorhabditis elegans with 2 samples.

Results

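The 10 genes described here form the insulin receptor to FOXO pathway of the nematode Caenorhabditis elegans. They were chosen by name out of 19973 annotated protein-coding genes, with earlier results of these data known. They are daf-2, age-1, daf-18, pdk-1, akt-1, akt-2, sgk-1 and daf-16, with daf-15 and let-363 of the TOR kinase branch. Every peak with its summit between 2000 bp upstream of a gene and its 3′ end was taken, on assembly ce11 with Ensembl WBcel235 gene models. The data are ChIP-seq peaks of the homeobox protein CEH-82, that is, DNA regions enriched by immunoprecipitation of chromatin from whole larvae of mixed sex in their first stage (L1). Both biological replicates came from strain OP212, genotype unc-119(ed3) III; ddEx58, which expresses CEH-82 fused to enhanced green fluorescent protein, and they formed the single group. The name ddEx58 is that of an extrachromosomal array, whereas the label also speaks of an insertion, and the number of copies and the promoter are not given. The protein was thus measured from a transgene, in a whole-animal sample in which strong binding in few cells and weak binding in many cannot be told apart. With 1 group, what follows compares lists, positions and genes rather than conditions, and read depth is unknown.

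Insulin-like peptides bind DAF-2, a receptor tyrosine kinase, which activates the phosphoinositide kinase AGE-1. The lipid that AGE-1 makes is removed again by the phosphatase DAF-18, and while present it lets PDK-1 activate the kinases AKT-1, AKT-2 and SGK-1. AKT kinases phosphorylate the FOXO transcription factor DAF-16 and keep it out of the nucleus. When signalling is low, DAF-16 enters the nucleus, and larvae can arrest in L1 or form the long-lived dauer larva. LET-363 is the TOR kinase and DAF-15 its partner Raptor, which couple nutrients to growth.

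The sequences under the peaks of daf-2, akt-2, pdk-1 and daf-15 are shown first, because the peaks of these genes differ in what they hold. All are given 5′ to 3′ on the strand of the gene, from the RefSeq genome of the same assembly. In the daf-2 and akt-2 peaks capitals mark GAGAGA on either strand (read as TCTCTC on the other), and overlapping matches run together. In the daf-15 sequence capitals mark TAATTA, the core that many homeodomain proteins recognise, and the 2 pdk-1 sequences hold neither. The pdk-1 intron 2 sequence is only 66 bases long. The daf-2 peaks lay at chrIII:3037342-3037601 and chrIII:3036120-3036379 (minus strand), the akt-2 peak at chrX:14146863-14147122 (plus strand), and the pdk-1 peaks at chrX:1319821-1320080 and chrX:1323131-1323196 (plus strand). For daf-15 only the part of the peak before the annotated transcript is printed, chrIV:9386084-9386207 (plus strand).
daf-2 intron 1, 5′ peak: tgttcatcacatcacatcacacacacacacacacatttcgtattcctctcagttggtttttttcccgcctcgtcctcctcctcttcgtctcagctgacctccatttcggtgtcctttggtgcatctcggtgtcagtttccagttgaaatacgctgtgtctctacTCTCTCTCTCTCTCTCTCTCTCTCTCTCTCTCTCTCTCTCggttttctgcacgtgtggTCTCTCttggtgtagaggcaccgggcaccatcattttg
daf-2 intron 1, 3′ peak: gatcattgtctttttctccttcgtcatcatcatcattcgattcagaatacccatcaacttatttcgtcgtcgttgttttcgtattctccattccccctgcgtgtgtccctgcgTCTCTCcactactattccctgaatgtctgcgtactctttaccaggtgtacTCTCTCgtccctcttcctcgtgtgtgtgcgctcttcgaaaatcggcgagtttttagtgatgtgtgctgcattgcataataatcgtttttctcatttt
akt-2 upstream peak: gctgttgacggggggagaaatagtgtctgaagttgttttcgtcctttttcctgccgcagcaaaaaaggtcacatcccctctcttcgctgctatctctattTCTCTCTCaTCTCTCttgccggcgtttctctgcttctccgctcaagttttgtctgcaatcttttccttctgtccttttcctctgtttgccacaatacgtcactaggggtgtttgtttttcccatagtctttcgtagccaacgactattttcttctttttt
pdk-1 upstream peak: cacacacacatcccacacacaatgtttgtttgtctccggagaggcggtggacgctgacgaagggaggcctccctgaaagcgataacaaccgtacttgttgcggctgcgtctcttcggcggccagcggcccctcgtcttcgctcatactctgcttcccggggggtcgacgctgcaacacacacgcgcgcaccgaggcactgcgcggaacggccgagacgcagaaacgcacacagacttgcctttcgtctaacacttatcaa
pdk-1 intron 2 peak: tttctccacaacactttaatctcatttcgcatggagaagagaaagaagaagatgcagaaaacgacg
daf-15 before the 5′ end: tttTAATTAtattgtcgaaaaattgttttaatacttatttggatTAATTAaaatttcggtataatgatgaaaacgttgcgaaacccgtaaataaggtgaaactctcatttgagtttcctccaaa

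The 5′ peak in daf-2 intron 1 held 1 unbroken stretch of 41 bases of alternating T and C, of which 40 are in capitals, while the longest in the akt-2 peak was 8 bases. By base composition the upstream pdk-1 peak stood apart, with 60.0% G and C against a median of 43.5% over all 3913 optimal peaks. The daf-15 peak had 31.9%.

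CEH-82 peaks lay at 7 of the 10 genes in the authors' optimal list, the 3913 peaks kept after thresholding by the irreproducible discovery rate (IDR). These were daf-2, daf-18, pdk-1, akt-2, daf-16, daf-15 and let-363, and age-1, akt-1 and sgk-1 had none. The share is 70.0% (exact binomial 95% interval 34.8 to 93.3%, counting error only), and the same rule called 21.6% of all protein-coding genes. The windows of the 10 genes are long, with a median of 9504 bp against 4027 bp for all genes. Longer windows were called more often: 15.7% of windows under 4000 bp, 35.8% of those from 8000 to 12000 bp and 49.4% of those of 20000 bp or more held an optimal summit. Both daf-2 and daf-16 belong to the longest class, akt-2 and daf-18 to a class with 29.7% called, and pdk-1, daf-15, age-1 and sgk-1 to the class with 35.8%. The window of let-363 falls in a class with 43.1% called and that of akt-1 in one with 21.5%. The count of 7 is to be read against these class values, and it was not tested against them. Each replicate's own top list, its 3913 strongest peaks, called the same 7 genes, where 21.5% of all genes were called in replicate 1 and 21.2% in replicate 2.

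**Figure D1:**
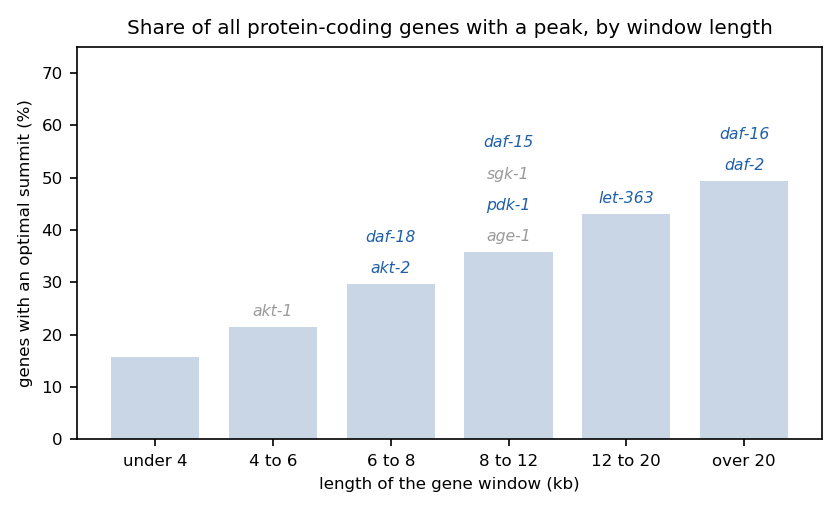
Bars give the percent of all protein-coding genes with an optimal summit from 2000 bp upstream to the 3′ end, by length of that window in kb. Names mark the class of each pathway gene, in blue where it had an optimal summit and in grey where it had none (age-1, akt-1, sgk-1), and the bars rise from 15.7% to 49.4%.

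At least 2 optimal summits were found at daf-2, pdk-1, daf-16 and let-363, beside 2.75% of all genes. In the longest window class, that of daf-2 and daf-16, the share was 20.9% of genes. The windows of pdk-1 and let-363 fall in shorter classes, for which this share was not counted. Together the 7 genes held 13 optimal peaks, all of which overlapped a peak in both replicates' top lists, while 80.4% of all optimal peaks did. The optimal list was itself made from both replicates, so part of this overlap follows from its making. Of the 13 peaks 7 lay inside the gene, beyond any of its promoter windows, 4 lay in a promoter window (from 1000 bp before an annotated transcript 5′ end to 200 bp after it), and 2 lay farther upstream. Over all protein-coding genes, 13.4% of the 5046 pairs of a gene and an optimal summit in its window lay inside the gene in this sense, 66.4% in its promoter window and 20.2% farther upstream. All 7 inside peaks were in daf-2, pdk-1, daf-16 and let-363, of which daf-2, daf-16 and let-363 have the longest windows of the 10, and the part of gene length in this split was not tested. The genes with a promoter peak were daf-18, akt-2, daf-16 and daf-15, which is 40.0% of the 10 (exact binomial 95% interval 12.2 to 73.8%) beside 16.0% of all protein-coding genes. That interval includes the background, but it gives counting error only for genes chosen by name, and no test was made with it. A gene has a promoter window at each annotated 5′ end. Of all genes with 2 or 3 such ends 22.8% had a promoter peak, and of those with 4 or more 29.5%. Both daf-2 and daf-16 have 7 ends, akt-2 and daf-18 have 1, and the other members have 2 or 3. The part of the number of 5′ ends in the 40.0% was not tested. The 10 genes have 31 annotated 5′ ends, and 8 of these had an optimal summit in their window, beside 15.4% of the 29784 5′ ends of all protein-coding genes. The 8 rest on 4 peaks, since a single summit served 3 neighbouring ends at daf-16 and 3 at daf-15. In this species many annotated 5′ ends are trans-splice sites, which limits how exactly a distance places a summit.

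By the strongest peak of each gene, the signal in the pooled list (the authors' caller's value per peak, on the scale of that list) ran from pdk-1 with 145 through let-363 with 99.0, daf-15 with 93.2, akt-2 with 89.6, daf-2 with 84.0 and daf-16 with 75.3 to daf-18 with 59.5. The median optimal peak had 55.7. In replicate 1 the same peaks had signals of 93.4, 64.3, 53.6, 51.3, 52.6, 46.7 and 36.6, on its own scale. Replicate 2 gave 51.6, 31.8, 38.3, 38.5, 29.1, 24.2 and 20.2. Both replicates thus put pdk-1 on top and daf-18 last, and both put let-363 and daf-15 above daf-2. Between replicates let-363 and akt-2 changed places, as did let-363 and daf-15, akt-2 and daf-15, and akt-2 and daf-2, so the order within these pairs is not settled.

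**Figure D2:**
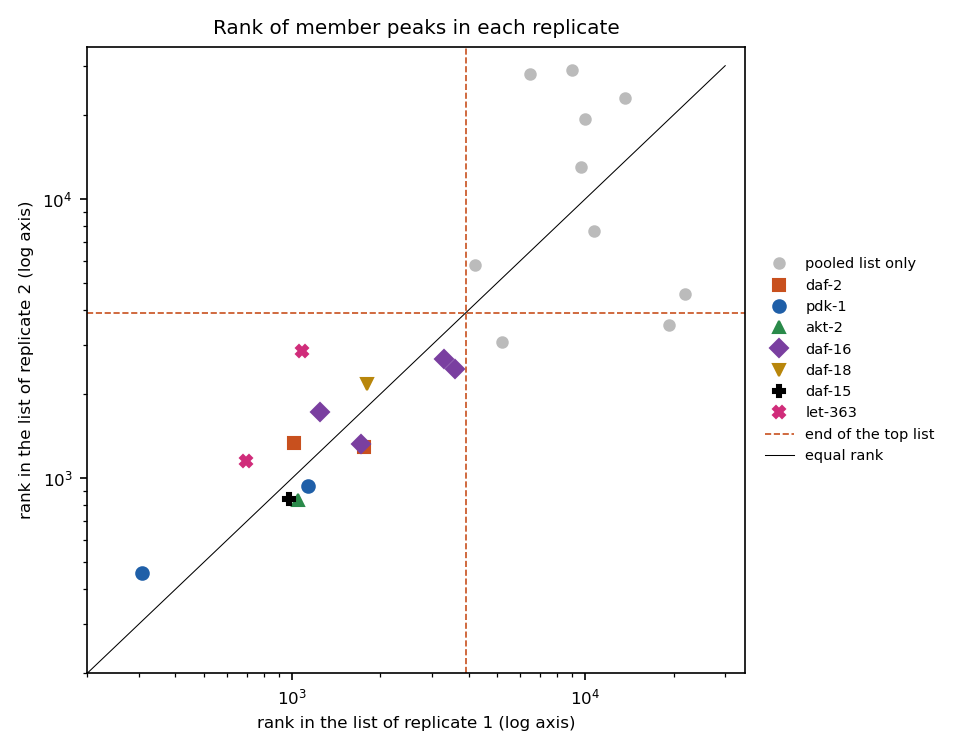
Each point is a peak in the window of a pathway gene, by its rank in the list of replicate 1 and of replicate 2 (log axes, rank 1 is the strongest), and dashed lines mark rank 3913, the end of the top lists. Coloured symbols are the 13 optimal peaks, all within both top lists, with pdk-1 at ranks 307 and 458 nearest the top. Grey points are the 10 weaker peaks found in both replicates.

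The receptor gene daf-2 (WBGene00000898, chromosome III, 2994514 to 3040846, minus strand) was bound inside its longest isoform and at none of its 7 annotated 5′ ends. Its optimal peaks lay 3374 and 4596 bp downstream of the 5′ end of transcript Y55D5A.5c.1, in intron 1 of 19 exons, and 8672 and 7450 bp upstream of the next 5′ end, that of Y55D5A.5a.1. The 4596-bp peak had signals of 52.6 in replicate 1 (rank 1015) and 29.1 in replicate 2 (rank 1336). For the 3374-bp peak they were 37.2 (rank 1759) and 29.9 (rank 1289). Replicate 1 therefore ranked the 3′ peak of the pair higher and replicate 2 the 5′ peak, so their order is not settled. Both lay in linc-143, a long intergenic non-coding RNA gene annotated on the same strand within this intron, the 5′ peak 71 bp and the 3′ peak 1293 bp after its 5′ end. The 3 weaker peaks of the pooled list at daf-2 lay in the same intron, the highest of them with a signal of 22.7. No pooled summit lay in the remaining part of the 46333-bp gene, where 6 further 5′ ends are annotated.

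The genes that make and remove the lipid signal differed. At age-1 (WBGene00000090, chromosome II, 11519328 to 11527054, minus strand) the pooled list held no peak, nor did the list of replicate 1, and replicate 2 listed 2 peaks, the higher with a signal of 4.49 at rank 16122. This made age-1 the only pathway gene without a pooled summit, in a list that had a summit in 49.7% of all gene windows. At daf-18 (WBGene00000913, chromosome IV, 420011 to 425177, minus strand) the optimal peak, chrIV:425633-425892, had its summit 586 bp upstream of the single annotated 5′ end. Its signal was 36.6 in replicate 1 (rank 1795) and 20.2 in replicate 2 (rank 2172), and the replicate summits lay 3 bp apart. The peak stands between divergent genes: garr-1, on the plus strand, starts 405 bp from the summit, nearer than daf-18. Under assignment of summits to the closest start of any protein-coding gene, daf-18 was no longer counted.

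Of the kinases downstream of the lipid, pdk-1 (WBGene00003965, chromosome X, 1321344 to 1327986, plus strand) held the strongest peak of the pathway. The summit was in intron 2, 1842 and 1833 bp downstream of its 2 annotated 5′ ends. With a signal of 93.4 in replicate 1 (rank 307) and 51.6 in replicate 2 (rank 458) it stood within the first 1.40% ± 0.176 (SD, n = 2) of the replicate lists. In the pooled list this peak was 66 bp wide, where 98.2% of pooled peaks were 260 bp wide, and the replicate summits were 34 bp apart. The other pdk-1 peak lay 1393 bp upstream of the gene and ranked 1132 (signal 49.4) and 939 (signal 36.2) in replicates 1 and 2. The nearest 5′ end of another protein-coding gene, H42K12.3, was 8343 bp from that summit. Neither pdk-1 peak fell in a promoter window of 1000 bp, and the upstream one entered with 2000 bp.

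The AKT genes contrasted. The akt-2 gene (WBGene00000103, chromosome X, 14147700 to 14152070, plus strand) had 1 optimal peak, centred 707 bp upstream of the 5′ end shared by both its transcripts. Its signals were 51.3 in replicate 1 (rank 1051) and 38.5 in replicate 2 (rank 832), with summits 5 bp apart. At akt-1 (WBGene00000102, chromosome V, 10248905 to 10252845, plus strand) the pooled list had a summit 171 bp upstream of the first 5′ end, with a signal of 11.8. That peak ranked 13638 (signal 7.16) and 23036 (signal 3.63) in replicates 1 and 2, far below the akt-2 peak in each list. A further pooled peak in akt-1 coding exon 8, of signal 12.7, overlapped a peak of replicate 2 (rank 6052, signal 7.94) and none of replicate 1. Both akt-1 peaks had pooled −log10 q-values of 0.326 or less, against 3.82, the ceiling of the list, for akt-2. The related kinase gene sgk-1 (WBGene00004789, chromosome X, 16254842 to 16262122, minus strand) had pooled peaks of signal 17.8 and 13.4 in its introns, 7006 and 4739 bp after the first 5′ end. The higher overlapped a peak of replicate 1 (rank 4715, signal 14.1) and none of replicate 2.

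**Figure D3:**
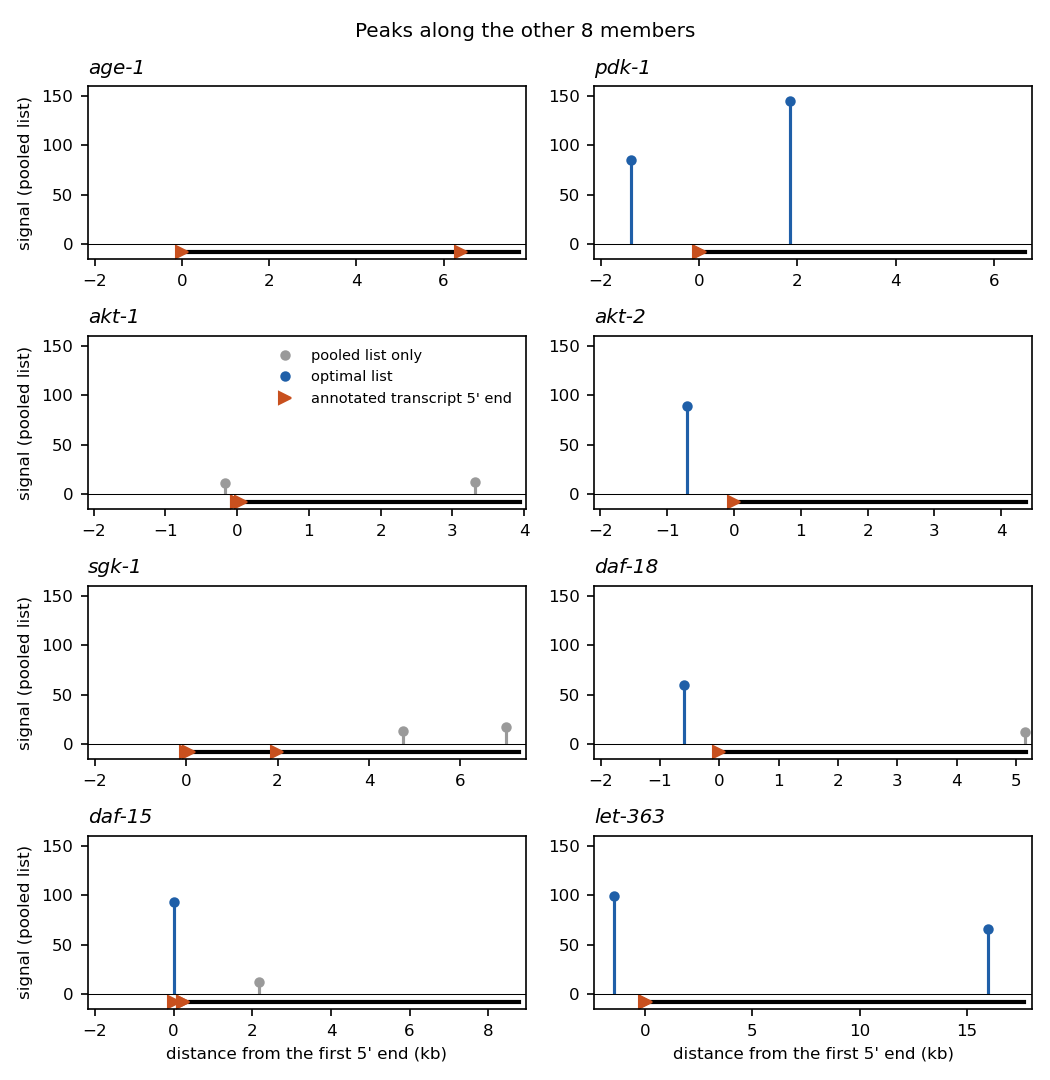
Signal of pooled-list peaks (vertical axis, scale of the pooled list) along 8 pathway genes, by distance of the summit from the first annotated 5′ end in kb. Blue stems are optimal peaks and grey stems pooled peaks outside the optimal list, black bars are the genes, and orange triangles are annotated 5′ ends. The tallest stem, 145, is in pdk-1, and age-1 has none.

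Both genes of the TOR branch had optimal summits in their windows, but each let-363 peak lay nearer the start of another protein-coding gene. The daf-15 peak (WBGene00000911, chromosome IV, 9386208 to 9394979, plus strand) had its summit 6 bp after the 5′ end of transcript C10C5.6c.1, in that transcript's annotated coding exon 1, and 236 and 243 bp upstream of the 5′ ends of the other 4 transcripts. All 3 annotated 5′ ends of daf-15 therefore had the summit in their promoter window. The signal was 53.6 in replicate 1 (rank 979) and 38.3 in replicate 2 (rank 842), with summits 3 bp apart. By the sum of rank differences over the 2 replicates, the protein-coding genes most like daf-15 were unc-50, unc-69 and ostf-4, which share a peak of ranks 963 and 829 on chromosome III (summed difference 29).

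The TOR kinase gene let-363 (WBGene00002583, chromosome I, 5245743 to 5263424, plus strand) had no summit in its own promoter window. Its stronger peak, at 5244154 to 5244413, lay 1459 bp upstream and only 1 bp after the 5′ end of mrpl-47, a mitochondrial ribosomal protein gene on the same strand. Signals there were 64.3 in replicate 1 (rank 696) and 31.8 in replicate 2 (rank 1157), with the replicate summits at the same base. The second let-363 peak (5261614 to 5261873) lay in intron 29 of 32 exons, 1950 bp upstream of vep-1. Replicate 1 gave it a signal of 50.7 (rank 1084) and replicate 2 one of 15.7 (rank 2855), a gap of over 1000 in rank. As a percent of each list's length its rank was 7.02% ± 3.54 (SD, n = 2), and the daf-16 peak 1356 bp into that gene had a larger spread, 11.6% ± 4.78. The replicate lists differ in length, and by rank alone the daf-16 peak (3600 and 2469) differed less than the let-363 peak.

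The FOXO gene daf-16 (WBGene00000912, chromosome I, 10750498 to 10776703, plus strand) carried the most peaks, with 4 in the optimal list and 13 in the pooled list. At least 4 optimal summits were found in 0.180% of all gene windows and in 6.08% of the 263 windows of 20000 bp or more. Its pooled peaks came to 0.461 per kb of window, against 0.169 per kb of genome and 0.103 per kb at daf-2, the longest of the 10 genes. Of the 13 pooled daf-16 peaks 9 lay outside the optimal list, with −log10 q-values from 0.0215 to 2.68. Those at 1748, 9819 and 23858 bp overlapped no peak of replicate 2. Such peaks count in full towards the density. Among the other members the density ran from 0 at age-1 to 0.337 at akt-1, where it rests on 2 peaks outside the optimal list. The gene has 11 transcripts from 7 annotated 5′ ends in 3 clusters, and the peaks were read against these.

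The optimal peak in front of the gene (10749906 to 10750165) was centred 462 bp upstream of the 5′ end of R13H8.1h.1, 596 bp upstream of R13H8.1f.1 and R13H8.1i.1, and 924 bp upstream of R13H8.1d.1 and R13H8.1k.1. Signals of 46.7 (rank 1247) and 24.2 (rank 1730) were listed for it in replicates 1 and 2. The non-coding RNA genes H36N01.4 and H36N01.1 also start there, 6 and 118 bp from the summit. A peak of similar height (10769722 to 10769981) lay 19354 bp into the gene, 1656 bp upstream of the 5′ end of R13H8.1a.1, the transcript that starts at the next 5′ end. It had 37.8 (rank 1716) in replicate 1 and 29.3 (rank 1323) in replicate 2, so the order of these peaks differed between replicates.

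The remaining optimal peaks of daf-16 were lower and lay in an intron of the 5 transcripts that start at the first 3 of these 5′ ends. At 1356 bp from the start of the gene the signal was 18.7 in replicate 1 (rank 3600) and 18.2 in replicate 2 (rank 2469). At 6672 bp it was 20.6 (rank 3294) and 16.7 (rank 2673), and the non-coding RNA gene R13H8.4 starts 33 bp from that summit. The nearest 5′ end of a coding transcript was 894 bp away for the first (R13H8.1d.1 and R13H8.1k.1, summit downstream) and 5933 bp away for the second (R13H8.1b.1 and R13H8.1c.1, summit upstream). The 5′ ends of R13H8.1b.1 and R13H8.1c.1 and of R13H8.1l.1 and R13H8.1m.1, in the middle of the gene, had no pooled summit in their promoter windows.

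The 5′ end of R13H8.1e.1 had a peak just outside the optimal list. Its summit was 506 bp upstream, with a pooled signal of 26.6 at rank 4045, and it ranked 5206 (signal 12.9) in replicate 1 and 3071 (signal 14.5) in replicate 2. The lowest optimal signal was 27.6. Replicate 2 alone would have placed this peak in its top list.

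**Figure D4:**
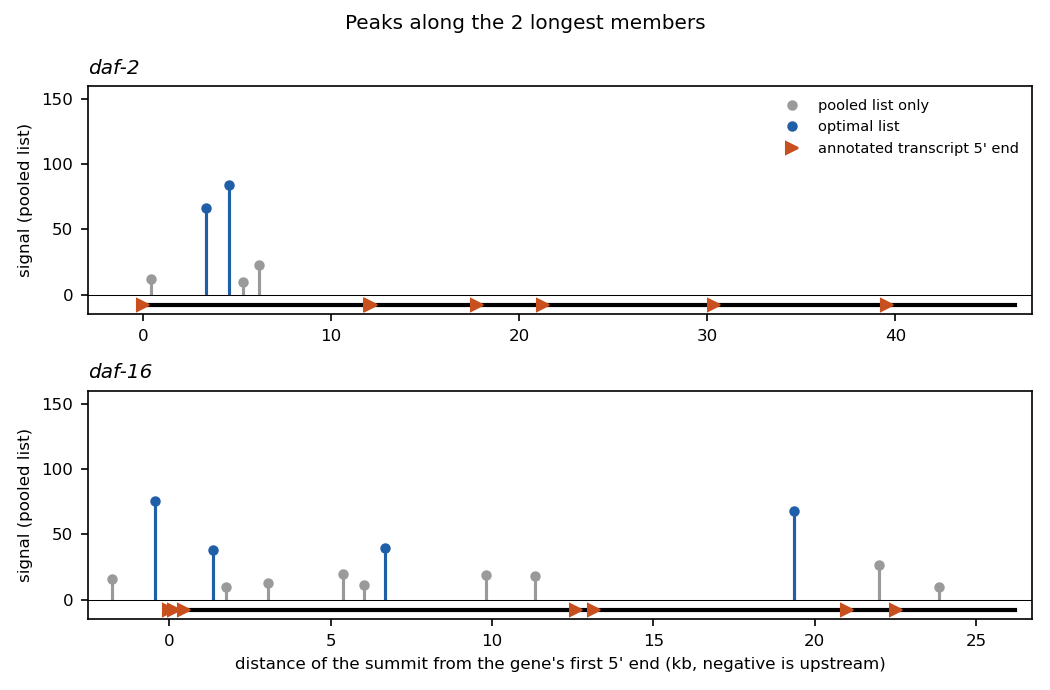
Signal of pooled-list peaks (vertical axis, scale of the pooled list) along daf-2 and daf-16, by distance of the summit from the first annotated 5′ end in kb. Blue stems are optimal peaks, grey stems other pooled peaks, black bars the genes and orange triangles annotated 5′ ends. The peaks of daf-2 cluster in the first intron, and those of daf-16 reach from 1776 bp upstream to 23858 bp into the gene.

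Of the sequences counted on both strands of the whole peak, GAGAGA occurred in 7 of the 13 peaks (53.8%), beside 49.6% of all optimal peaks and 27.2% of the other pooled peaks. It was in both daf-2 peaks, all 4 daf-16 peaks and the akt-2 peak, and in none at pdk-1, daf-18, daf-15 or let-363. The pdk-1 intron peak is 66 bp wide and the rest of the 13 are each 260 bp wide, so less sequence was searched there. The 5′ daf-2 peak and the daf-16 peak 19354 bp into the gene had 19 overlapping matches each, the akt-2 peak 3. The weak akt-1 peak in front of the gene also had 3. TAATTA occurred in 1 of 13 peaks, that of daf-15, with 2 matches, beside 6.18% of all optimal peaks and 10.2% of the other pooled peaks. It was thus rarer in the optimal list than outside it. GTAAACA, the letters of the DAF-16 binding element, occurred in 1 of 13, the peak in front of daf-16 itself, beside 4.27%. CACGTG occurred in 2 of 13 (the 5′ daf-2 peak and the daf-16 peak 1356 bp into the gene), beside 6.49%. TGATAA occurred in the upstream pdk-1 peak alone, beside 10.6%. In the other pooled peaks the shares were 3.97% for GTAAACA, 5.32% for CACGTG and 21.2% for TGATAA. Each of these shares of the 13 rests on few matches and is a description.

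Annotated non-coding RNA 5′ ends within 200 bp of the summit were found at 3 of the 13 peaks (23.1%), at daf-2 and daf-16, beside 14.9% of all optimal peaks.

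Genes of 6 wider lists, related to the pathway but not all members of it, were counted by the promoter rule. That rule called 16.0% of all protein-coding genes. These lists, too, were chosen with earlier results of these data known. Among 14-3-3 proteins (which hold phosphorylated DAF-16 in the cytoplasm), DAF-16 partners and modifiers, 15 of 23 were called (65.2%). Counted anew over the 23 genes, the top list of each replicate called 14, not all through the same genes or peaks. The highest was cbp-1, an acetyltransferase and transcriptional coactivator, with a signal of 154 in replicate 1 (rank 72) and 98.2 in replicate 2 (rank 74). It was followed in the pooled list by the 14-3-3 gene par-5 (signal 116), the deubiquitinase gene math-33 (78.9), swsn-1 of the SWI/SNF complex (76.9) and the importin gene imb-2 (68.1). The strongest peak of 3 of the 15 also lay in another protein-coding gene's window, such as that of erfa-3 beside math-33.

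The list of TOR partners, Rag and Rheb GTPases and S6 kinase also held genes outside those classes, such as hlh-30, ife-2 and flcn-1. Of its 19 genes 7 were called (36.8%), without the S6 kinase gene, and 7 in each replicate's top list. They were led by rheb-1, the GTPase that activates TOR (signal 132, the same peak as spk-1), lmtr-3 (99.5, the same peak as atp-5), the lysosomal regulator gene hlh-30 (97.9), ife-2 (72.1) and the folliculin gene flcn-1 (61.4). Of these 7 genes 4 shared the peak with another protein-coding gene. Among the receptor adaptors, the adaptor subunit of the lipid kinase and the subunits of the phosphatase that acts on AKT-1, 3 of 6 were called: paa-1 (signal 63.0, the same peak as F48E8.8), shc-1 (46.2) and pptr-1 (29.3). The peak of pptr-1 ranked 3077 in replicate 1 and 12505 in replicate 2, and 2 of the 6 genes were called in the top list of replicate 2.

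Few ligands and targets were called. Among 39 insulin-like ligand genes 1 was called (2.56%), ins-39, with signals of 217 in replicate 1 (rank 26) and 144 in replicate 2 (rank 20). Of 19 DAF-16 target genes 1 was called (5.26%), the glycolytic gene gpd-2 (signal 39.6, ranks 3206 and 2313), and sod-3 and mtl-1, much used as readouts of DAF-16 activity, were not. Among 14 other dauer genes 5 were called (35.7%): hsp-90 (signal 226, shared with C47E8.4), din-1 (113), daf-3 (61.0), daf-1 (37.3) and daf-5 (35.9). No test between these lists was run, and the lists differ in length and in annotated 5′ ends, while the share of all genes called was 22.8% with 2 or 3 such ends and 29.5% with 4 or more.

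**Figure D5:**
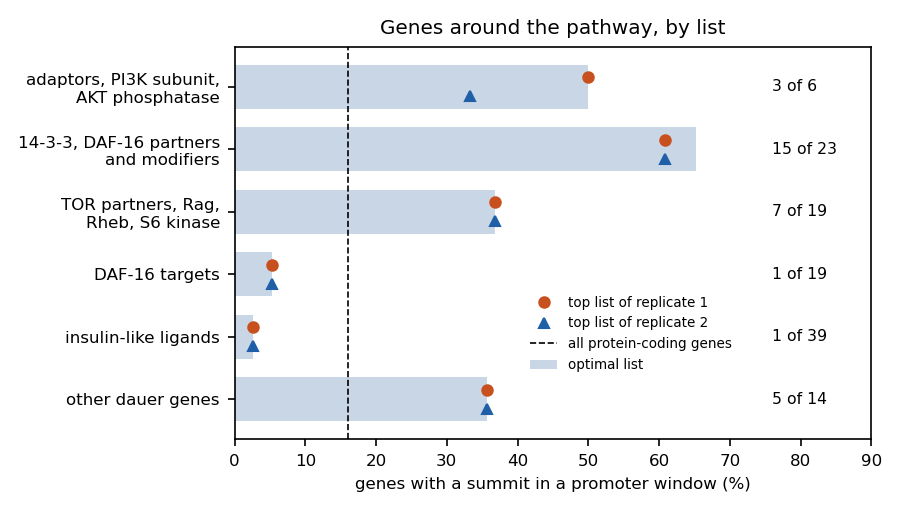
Percent of the genes in each list with a summit in a promoter window, as bars for the optimal list and as symbols for the top list of each replicate. The dashed line is the share of all protein-coding genes, 16.0%, and counts stand at the right. The list of 14-3-3 proteins and DAF-16 partners reaches 65.2%, and the ligands and DAF-16 targets stay below the line at 2.56% and 5.26%.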

How the data were processed

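Peak lists on ce11, which is the assembly WBcel235, were used. Per the deposited read-me files, peaks were called on each replicate and on both pooled, always against 1 control, and IDR thresholding of those lists gave the optimal list. No source used here names the aligner, the caller or the IDR threshold. The deposited columns used are the authors' signal, their −log10 q-value and the offset of the summit. Signal scales differ between lists, so peaks were ranked within a list, by signal and then q-value. The 3913 optimal peaks are the strongest 3913 of the 16974 pooled peaks. The lists of replicates 1 and 2 held 24014 and 30000 peaks, the latter perhaps an upper limit. Depth is unknown. The ce10 lists were not used.

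Genes and 5′ ends came from Ensembl release 115, and bases from the RefSeq genome (WBcel235). A replicate peak matched a pooled peak when they shared at least 1 bp, and the strongest match was taken. Intervals are exact binomial (SciPy 1.17.1, Python 3.11.15). The calling of genes was checked on planted summits. The members, the 6 wider lists and the sequences were chosen with earlier results of these data known, and dod-8, one of the DAF-16 targets listed, had no match by name. Named were all members and their optimal peaks, or the strongest pooled peak where there was none, genes sharing those peaks, up to 5 called genes per list, sod-3 and mtl-1, and 3 genes of ranks like those of the member with the highest promoter peak. No set test was run. The alternatives were other window lengths, peak overlap or midpoint in place of the summit, the strongest 1956 optimal peaks and each replicate alone. Further ones were the nearest start of a protein-coding gene, coding transcripts only, reciprocal overlap of 50% and a motif window of 100 bp either side. Length classes of windows, classes by number of 5′ ends, sequences other than GAGAGA the non-coding 5′ ends and the shares of places and 5′ ends over all genes were added after the data were seen.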

Additional observations from a re-analysis of the deposited data

How the results depend on the processing

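The count of 7 genes with an optimal summit from 2000 bp upstream to the 3′ end was also 7 with 1000 bp, by peak overlap, in the strongest 1956 peaks and in each replicate's top list (range with a replicate left out 7 to 7), and 8 with 5000 bp, where akt-1 was added and 29.7% of all genes were called. The 4 genes with a promoter summit became 2 (daf-16 and daf-15) with 500 bp and 6 with 2000 bp, where pdk-1 and let-363 were added, and the share of all genes called was 13.1% and 20.3%. They were 3 by nearest start of a protein-coding gene, and 4 with midpoints, in the strongest 1956 peaks and with a replicate left out. With 2000 bp the adaptor and phosphatase list rose from 3 to 5 genes, and with 500 bp the ligand list fell from 1 to 0. With a replicate left out the list counts were 2 to 3 for adaptors and phosphatase, and changed by at most 1 elsewhere. Reciprocal overlap of 50% matched 12 of the 13 peaks in both replicates in place of 13, the 66-bp pdk-1 peak being lost, and GAGAGA was in 6 in place of 7 within 100 bp of the summit. Coding transcripts alone left 4 peaks in promoter windows. No paired analysis was possible because there is 1 group. Both replicates share 1 control, and without read counts the error of a single signal is unknown.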

Other observations

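Of the 18 pooled peaks in their windows outside the optimal list, with signals from 9.51 to 26.6, 10 overlapped a peak of each replicate's list and 8 a peak of 1 replicate. Among all 13061 pooled peaks outside the optimal list these shares were 49.2% and 48.5%. At daf-16 the peak 9819 bp into the gene ranked 3839 in replicate 1, within its top list, and overlapped no peak of replicate 2. The daf-16 peak at 5366 bp (pooled signal 19.8) ranked 19229 in replicate 1 and 3540 in replicate 2, within the top list of the latter. At the 3′ end of daf-18, a peak in its last exon, exon 7, ranked 4357 in replicate 1 (signal 15.2) and overlapped no peak of replicate 2. At sgk-1 replicate 2 listed its strongest peak 205 bp after the first 5′ end (rank 10256, signal 5.72), where replicate 1 listed none, and the strongest of replicate 1 lay 6939 bp into the gene.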
